A study of Mus musculus with 123 samples.

Results

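Clpx, Coq10b, Upp2, Mreg, Tns2 and Usp2 are genes outside the core circadian clock whose liver transcript levels followed a strong daily cycle. They were chosen by symbol, as 6 of the 15398 genes of a processed expression table, because their rhythms in these same libraries were large or differed between photoperiods. All 6 were found once in the table and all 6 passed a filter on low values that 14397 genes passed. Liver RNA came from mice fed a diet labelled high fat (HFD) or low fat (LFD), kept in light schedules named Equal light, Long light or Short light and sampled at zeitgeber time (ZT, hours on the light schedule) 0, 4, 8, 12, 16 and 20 h. The 61 HFD and 62 LFD libraries formed 36 groups, 21 of 3 libraries and 15 of 4, and a diet with a photoperiod is called an arm here, with 20 or 21 libraries per arm. Strain, sex, age, feeding time, length of diet, hours of light and the event that defines ZT0 are not given in the sources used here. No animals are named in the labels, so the spread behind each p-value is that between libraries and may be technical. Bulk liver cannot tell fewer cells of a type from less RNA per cell.

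A circadian clock in each liver cell is built from a transcription loop in which the activators ARNTL and CLOCK bind E-box elements and drive their own repressors, the PER and CRY proteins and the nuclear receptors REV-ERB alpha and beta (Nr1d1, Nr1d2). The PAR bZIP factors DBP, TEF and HLF bind D-box elements and pass the rhythm on to metabolic genes, and NFIL3 represses through the same elements. The 6 genes carry no core role in that loop and serve different cell functions. CLPX is the ATPase that unfolds proteins for the mitochondrial ClpXP protease and also activates the enzyme that starts heme synthesis. COQ10B is a mitochondrial protein that binds coenzyme Q, and its yeast relative Coq10 is needed for coenzyme Q to work in respiration. UPP2 is a uridine phosphorylase of the liver, which splits uridine into uracil and ribose phosphate. MREG, melanoregulin, acts in the transport of melanosomes and related organelles in mouse cells. TNS2, tensin 2, joins actin to focal adhesions, and USP2 is a deubiquitinase whose known substrates include clock proteins.

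All 6 are annotated as protein-coding genes on build GRCm38, and each value counts reads over the whole gene, so that isoforms such as those of Usp2 are not separated. Clpx (ENSMUSG00000015357) spans chromosome 9, 65294260 to 65330658, on the plus strand, and Usp2 (ENSMUSG00000032010) spans chromosome 9, 44067021 to 44095627, on the plus strand. Coq10b (ENSMUSG00000025981) spans chromosome 1, 55052770 to 55072702, on the plus strand, and Mreg (ENSMUSG00000039395) spans chromosome 1, 72159442 to 72212307, on the minus strand. Upp2 (ENSMUSG00000026839) spans chromosome 2, 58567298 to 58792971, on the plus strand. Tns2 (ENSMUSG00000037003) spans chromosome 15, 102100413 to 102116401, on the plus strand.

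Promoter windows from 250 bases before to 50 bases after the start site were taken from RefSeq (GRCm38.p6), and 8 windows matched the 6 genes. They are shown for Coq10b and Clpx, whose levels ran in opposite directions over the day and whose windows held motif letters, and for Usp2, which had the widest daily swing. The letters searched on both strands were the E-box CACGTG, the E-box variant CACGTT, the D-box forms TTATGTAA and TTACGTAA, and TAGGTCA, a sequence bound by REV-ERB and ROR receptors. No 2 of these motifs share letters in the matches found. Capitals mark the matches, and each line reads 5′ to 3′ on the plus strand at chr1:55052520-55052819, chr9:65294010-65294309 and chr9:44084670-44084969.
Coq10b: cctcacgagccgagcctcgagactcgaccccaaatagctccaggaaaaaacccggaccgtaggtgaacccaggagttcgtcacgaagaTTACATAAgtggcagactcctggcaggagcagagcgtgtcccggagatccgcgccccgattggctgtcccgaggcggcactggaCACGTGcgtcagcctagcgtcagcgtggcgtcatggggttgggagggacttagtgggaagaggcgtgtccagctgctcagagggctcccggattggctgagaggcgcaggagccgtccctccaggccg
Clpx: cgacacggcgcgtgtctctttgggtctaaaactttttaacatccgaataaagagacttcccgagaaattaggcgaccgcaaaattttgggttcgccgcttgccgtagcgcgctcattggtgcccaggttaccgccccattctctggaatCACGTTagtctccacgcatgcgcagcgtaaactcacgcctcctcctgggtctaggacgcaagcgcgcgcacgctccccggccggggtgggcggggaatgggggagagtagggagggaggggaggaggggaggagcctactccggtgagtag
Usp2: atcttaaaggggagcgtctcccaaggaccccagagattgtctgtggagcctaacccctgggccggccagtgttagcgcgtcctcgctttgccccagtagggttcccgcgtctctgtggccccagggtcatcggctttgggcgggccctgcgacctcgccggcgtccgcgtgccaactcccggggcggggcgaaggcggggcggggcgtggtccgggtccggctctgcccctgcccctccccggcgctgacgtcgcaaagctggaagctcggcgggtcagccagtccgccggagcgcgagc

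Coq10b held CACGTG at position -78 from the start site and TTATGTAA on the minus strand (TTACATAA as printed) at position -162. Clpx held CACGTT at position -101. Among 32851 promoter windows of this length, 7.15% held CACGTG, 4.68% held CACGTT, 0.938% held TTATGTAA in either direction, 0.119% held TTACGTAA and 2.61% held TAGGTCA. None of these letters occurred in the windows of Upp2 (2 windows), Mreg (2 windows), Tns2 or Usp2. The single windows of Usp2 (from 44084670) and Tns2 (from 102102684) lie inside genes annotated from 44067021 and 102100413. Usp2 and Tns2 have 9 annotated transcripts each, and start sites outside their windows were not searched. The matches describe the sequence and name no bound factor.

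Before the levels are given, 9 libraries need naming, because their clock genes did not match the time on their label. Each library was matched by 19 clock and clock output genes to the daily curve of the other libraries of its arm. The median distance between matched and labelled time was 1.0 h, and 9 libraries lay more than 4 h away. Of these 9, 8 carried library numbers 49 to 64 in their titles, a run of 16 libraries, and 1 was among all the others. They were LFD Long light ZT8 replicate 1 (4.5 h late), LFD Short light ZT0 replicate 3 (9 h late), HFD Equal light ZT4 replicate 3 (4.25 h late), LFD Equal light ZT12 replicate 4 (7.5 h late), HFD Short light ZT0 replicate 2 (11.5 h late) and LFD Long light ZT16 replicate 2 (6 h late), and HFD Equal light ZT12 replicate 1 (-8.75 h), LFD Short light ZT16 replicate 4 (-5.5 h) and HFD Equal light ZT16 replicate 2 (-11.5 h). Late means that the matched time was later than the label, which on a 24 h circle is the same as early by the remaining hours. The cause was not tested. The libraries stay in the values below, and results that rest on them are given without them too. Because the members follow the clock genes, leaving these libraries out narrows the members' spread by construction.

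**Figure D1:**
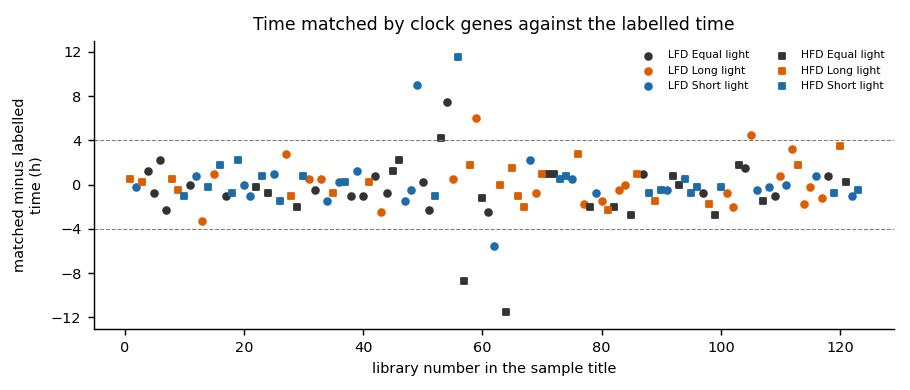
Time matched by 19 clock genes minus labelled time (h, vertical axis) for each library against the library number in its title (horizontal axis); colours are photoperiods, circles LFD and squares HFD, dashed lines mark 4 h. The libraries beyond the lines number 9, and 8 of them carry numbers 49 to 64.

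Depth recovered from the table ran from 13.97 M to 39.09 M reads (megareads) in a library, and the median was 24.06 M. The hepatocyte transcript Alb (albumin) had a mean level of 16.20 log2 CPM (CPM, reads per megaread of the library, on a log2 scale), and 8 of 8 hepatocyte markers passed the filter. Skeletal muscle or pancreas acinar markers were high in 17 libraries, 5 HFD and 12 LFD, whose cause was not tested. In those 17 the members lay on average -0.134 (Usp2) to 0.056 (Tns2) log2 units from their group means. With the 17 left out, 0 of 36 amplitudes and 0 of 36 peak times of the members moved by their SE or more, and their part in single values was not tested.

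Rhythm chose these genes, so their amplitude, peak time and order over the day are a description with no test. A cosine of 24 h was fitted per arm, and its amplitude is the log2 distance from mean to peak. By the mean amplitude of the 6 arms, Usp2 ranked 9, Upp2 21, Clpx 56, Coq10b 140, Mreg 224 and Tns2 503 among 14397 genes. The median gene had an amplitude of 0.159. Tns2 therefore stands far below the others in size, and the name strongest fits it least.

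**Figure D2:**
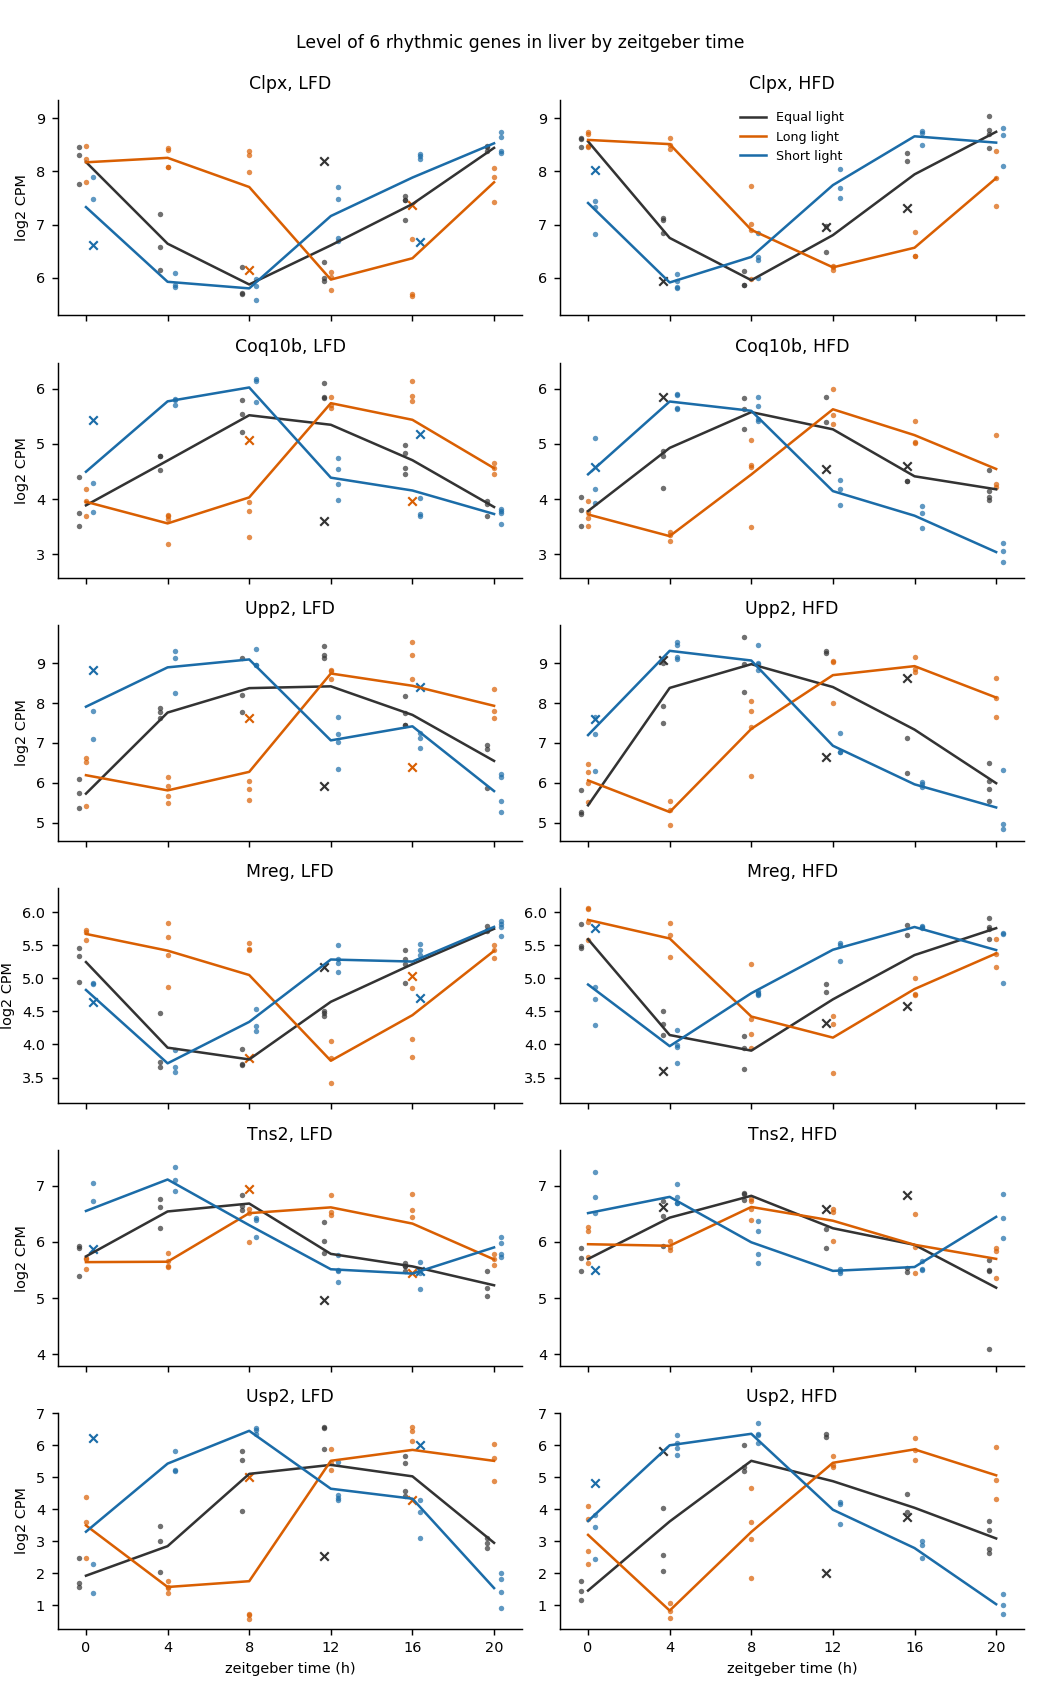
Level (log2 CPM, vertical axis) of the 6 genes by zeitgeber time (h, horizontal axis) in LFD (left) and HFD (right); lines join group means, dots are libraries, crosses the 9 libraries whose clock genes went against their label, and colours are photoperiods. The Short light curve comes before and the Long light curve after the Equal light curve, except for Tns2 in HFD, where Equal and Long light are both highest at ZT8 and lowest at ZT20, and several crosses lie far from their group.

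Clpx, the unfoldase of the mitochondrial matrix, was high late in the cycle and low in its middle under Equal light. In LFD Equal light its level was 8.46, 8.39 and 8.48 log2 CPM at ZT20, its highest time, and 5.70, 5.72 and 6.21 at ZT8, its lowest. In HFD Equal light it was 9.05, 8.78, 8.71 and 8.45 at ZT20 and 5.87, 5.87 and 6.12 at ZT8. No library of the high time overlapped with one of the low time in either diet. Under Long light the high time came at the start of the cycle, with 8.41, 8.09, 8.08 and 8.45 log2 CPM at ZT4 in LFD and 8.48, 8.70, 8.46 and 8.73 at ZT0 in HFD, and the low time was ZT12 (6.01, 6.12 and 5.77 in LFD, and 6.22, 6.15 and 6.21 in HFD). Under Short light the highest groups were 8.35, 8.74, 8.38 and 8.65 log2 CPM at ZT20 in LFD, the same time as under Equal light, and 8.75, 8.50 and 8.72 at ZT16 in HFD, 1 sampling time before Equal light. The lowest groups of Clpx there were 5.59, 5.97 and 5.84 log2 CPM at ZT8 in LFD and 5.83, 5.94, 6.07 and 5.80 at ZT4 in HFD. Between the highest and the lowest group mean of an arm the level differed 4.89-fold to 6.92-fold. With the times of each arm ordered by mean level, 8 of 30 steps between neighbours in that order had groups that did not overlap. Such neighbours are the closest in level by construction and need not be neighbouring ZTs. The share over all genes was not counted, so nothing is read from this number.

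The cosine of Clpx peaked at ZT20.7 (SE 0.455 h) with an amplitude of 1.24 (SE 0.154) in LFD Equal light and at ZT20.4 (SE 0.406 h) with 1.43 (SE 0.149) in HFD Equal light. Its peak stood at ZT1.85 in LFD Long light and ZT0.795 in HFD Long light, and at ZT18.5 and ZT17.4 in the Short light arms. The distance from Short to Long light was 7.33 h (SE 0.632) in LFD and 7.35 h (SE 0.587) in HFD. Without the 9 libraries the LFD Long light peak was ZT2.40 and the amplitudes ran from 1.26 to 1.48.

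Coq10b, the coenzyme Q binding protein of mitochondria, ran nearly opposite to Clpx. In LFD Equal light its level was 5.54, 5.81 and 5.22 log2 CPM at ZT8 and 3.96, 3.92 and 3.70 at ZT20. In HFD Equal light it was 5.84, 5.27 and 5.63 at ZT8 and 4.04, 3.80 and 3.51 at ZT0. These are the highest and lowest means of those arms, and their libraries did not overlap. In LFD Equal light ZT12 the replicates read 5.85, 6.11, 5.84 and 3.59 log2 CPM, and the low value is a library that went against its label: without it the mean was 5.93, above ZT8. Under Long light Coq10b was highest at ZT12, with 5.65, 5.71 and 5.86 log2 CPM in LFD and 5.36, 6.01 and 5.53 in HFD, and lowest at ZT4, with 3.19, 3.69, 3.71 and 3.65 in LFD and 3.24, 3.34 and 3.41 in HFD. Without the 9 libraries Coq10b was highest at ZT16 in LFD Long light (mean 5.929, against 5.741 at ZT12). In HFD Equal light it was then highest at ZT12 (5.625, against 5.579 at ZT8). Under Short light it read 6.14, 5.76 and 6.18 log2 CPM at ZT8 in LFD and 5.63, 5.65, 5.91 and 5.89 at ZT4 in HFD. At the low time of Short light, ZT20, Coq10b read 3.83, 3.79, 3.56 and 3.75 log2 CPM in LFD and 3.20, 2.87 and 3.05 in HFD, and no library of that time overlapped with the high time of its arm.

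The highest and lowest group means of Coq10b differed 3.17-fold in LFD Equal light and 6.64-fold in HFD Short light, with the other arms between, and without the 9 libraries the same arms differed 4.22-fold and 6.64-fold. Its cosine amplitude was 0.896 (SE 0.154) in LFD Equal light and 1.35 (SE 0.149) in HFD Short light. In the order Equal, Long, Short light it peaked at ZT9.88, ZT14.8 and ZT6.18 in LFD and at ZT9.29, ZT14.1 and ZT5.93 in HFD. With the 9 libraries left out the LFD Equal light amplitude was 1.07 and the HFD Equal light peak ZT10.1. Of 30 steps between neighbours in the order by level, 6 were free of overlap.

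Upp2, the uridine phosphorylase, followed nearly the course of Coq10b with a larger swing. In HFD Equal light its level was 9.66, 8.28 and 8.99 log2 CPM at ZT8 and 5.22, 5.82 and 5.27 at ZT0. In LFD Equal light the highest mean was at ZT12, where the libraries read 9.13, 9.42, 9.21 and 5.92 log2 CPM, and the lowest at ZT0, with 6.09, 5.36 and 5.74. The low library at LFD Equal light ZT12 is the same that stood apart for Coq10b, and it made this the single arm in which the highest and lowest groups of Upp2 overlapped. Under Long light Upp2 read 8.82, 8.81 and 8.59 log2 CPM at ZT12 in LFD and 9.16, 8.85 and 8.78 at ZT16 in HFD, against 6.15, 5.50, 5.68 and 5.91 (LFD) and 5.54, 4.94 and 5.32 (HFD) at ZT4. Under Short light it read 8.96, 9.36 and 8.96 log2 CPM at ZT8 in LFD and 9.54, 9.14, 9.45 and 9.11 at ZT4 in HFD, and its low time was ZT20, with 6.15, 5.55, 6.22 and 5.26 in LFD and 4.85, 6.32 and 4.98 in HFD. The fold between highest and lowest mean was 6.46 to 9.87 in the LFD arms and 11.6 to 15.2 in the HFD arms. The 6.46-fold of LFD Equal light rests on the low library at ZT12. Leaving out all 9 libraries, the folds of Upp2 were 11.5, 9.91 and 9.87 in the LFD arms and 14.4, 12.6 and 15.2 in the HFD arms, for Equal, Long and Short light in turn. The highest time of Upp2 in Equal light was then ZT12 in both diets, with means of 9.255 in LFD and 9.281 in HFD. In Long light it was ZT16 in both, with 9.119 in LFD and 8.928 in HFD, and in Short light it stayed at ZT8 in LFD and ZT4 in HFD.

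In the same order of photoperiods the cosine amplitude of Upp2 was 1.29, 1.56 and 1.36 in LFD and 1.75, 1.86 and 2.05 in HFD, with SEs of 0.226 to 0.243. The HFD minus LFD difference in amplitude was 0.45 (SE 0.339), 0.30 (SE 0.332) and 0.69 (SE 0.330) in that order. After removal of the 9 libraries the LFD amplitudes were 1.56, 1.84 and 1.51 and the HFD amplitudes 1.93, 1.86 and 2.05, so that in Long light the diets were nearly equal. The peak of Upp2 lay at ZT10.4, ZT15.4 and ZT6.11 in LFD and ZT9.12, ZT14.8 and ZT5.95 in HFD. Of 30 steps between neighbours in the order by level, 4 were free of overlap.

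Mreg, melanoregulin, kept nearly the times of Clpx. In LFD Equal light its level was 5.80, 5.73 and 5.72 log2 CPM at ZT20 and 3.71, 3.69 and 3.93 at ZT8, and in HFD Equal light 5.74, 5.78, 5.60 and 5.92 at ZT20 and 4.13, 3.95 and 3.64 at ZT8. Under Long light it read 5.71, 5.57 and 5.74 log2 CPM at ZT0 in LFD and 5.58, 5.85, 6.07 and 6.04 in HFD, and at ZT12, the low time, 4.05, 3.80 and 3.41 in LFD and 4.43, 3.57 and 4.31 in HFD. Under Short light the lowest time of Mreg was ZT4, with 3.65, 3.91 and 3.58 log2 CPM in LFD and 3.96, 4.00, 4.22 and 3.73 in HFD. Its highest Short light groups were ZT20 in LFD, at 5.78, 5.82, 5.87 and 5.65, and ZT16 in HFD, at 5.78, 5.76 and 5.79. Highest and lowest groups did not overlap in any of the 6 arms, and their means differed 3.44-fold to 4.18-fold. The cosine amplitude of Mreg varied little, from 0.808 (SE 0.119) in HFD Short light to 0.975 (SE 0.119) in HFD Equal light. For Equal, Long and Short light in turn it peaked at ZT19.2, ZT0.854 and ZT17.3 in LFD and at ZT19.6, ZT23.7 and ZT16.2 in HFD.

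Tns2, the focal adhesion adaptor, had the smallest swing. In LFD Equal light its level was 6.64, 6.84 and 6.57 log2 CPM at ZT8 and 5.03, 5.17 and 5.48 at ZT20. In HFD Equal light it was 6.85, 6.74 and 6.87 at ZT8 and 4.09, 5.49, 5.68 and 5.48 at ZT20, where the lowest library did not go against its label by its clock genes. Highest and lowest groups were apart in all 6 arms, by 1.90-fold in HFD Long light to 3.19-fold in LFD Short light. In LFD Short light Tns2 read 6.90, 7.33 and 7.10 log2 CPM at ZT4 and 5.65, 5.16, 5.45 and 5.48 at ZT16. In HFD Long light it read 6.73, 6.77, 6.40 and 6.58 at ZT8 and 5.84, 5.36 and 5.89 at ZT20. The cosine amplitude there, 0.398 (SE 0.111), was the smallest of any member and arm, and its peak at ZT9.09 carried an SE of 1.11 h. The other peaks of Tns2 were, for LFD, ZT6.45 (Equal), ZT11.8 (Long) and ZT3.10 (Short) and, for HFD, ZT8.08 (Equal) and ZT1.44 (Short). Without the 9 libraries the LFD Long light peak was ZT12.6 and the HFD Equal light peak ZT7.34. Tns2 was then highest at ZT16 in LFD Long light (mean 6.619, against 6.614 at ZT12). In HFD Short light it was highest at ZT0 (6.847, against 6.801 at ZT4). Of 30 steps between neighbours in the order by level, 2 were free of overlap.

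Usp2, the deubiquitinase, had the widest swing, from a lowest library at 0.564 to a highest at 6.72 log2 CPM. In HFD Short light it read 6.35, 6.72, 6.06 and 6.33 log2 CPM at ZT8 and 1.33, 1.01 and 0.730 at ZT20, a 40.5-fold difference between the means of these groups. In LFD Short light it read 6.48, 6.55 and 6.34 log2 CPM at ZT8 and 0.908, 1.82, 1.99 and 1.41 at ZT20. On the CPM scale those ZT8 and ZT20 means of Usp2 were 83.4 and 1.98 in HFD and 87.9 and 2.93 in LFD. Under Long light Usp2 was highest at ZT16, with 6.45, 4.28, 6.57 and 6.13 log2 CPM in LFD and 6.23, 5.86 and 5.53 in HFD, and lowest at ZT4, with 1.76, 1.58, 1.53 and 1.39 in LFD and 1.06, 0.601 and 0.813 in HFD. Under Equal light it read 1.58, 1.69 and 2.49 log2 CPM at ZT0 in LFD and 1.45, 1.74 and 1.17 in HFD. The highest Equal light groups of Usp2 were ZT12 in LFD, with 6.59, 6.56, 5.88 and 2.53, and ZT8 in HFD, with 6.03, 5.34 and 5.19. Highest and lowest groups were apart in all 6 arms, by 11.1-fold to 40.5-fold. When the 9 libraries are left out, the folds of Usp2 were 21.5 in LFD Equal light (11.1 with all), 53.1 in LFD Long light (19.6 with all) and 29 in HFD Equal light (16.7 with all), and 30.4 to 40.4 in the other arms.

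Some groups of Usp2 hold a library far from the rest that is among the 9. In LFD Long light ZT8 the replicates read 5.02, 0.564, 0.710 and 0.692 log2 CPM, in LFD Short light ZT0 2.28, 1.39 and 6.23, and in HFD Equal light ZT12 2.01, 6.27 and 6.35. Leaving the 9 libraries out, the mean of LFD Long light ZT8 was 0.655 and that of HFD Equal light ZT12 was 6.31. Without them the lowest time of LFD Long light was thus ZT8 and the highest time of HFD Equal light ZT12. For Equal, Long and Short light in turn the cosine amplitude of Usp2 was 1.86, 2.44 and 2.03 in LFD and 1.67, 2.31 and 2.52 in HFD, and without the 9 libraries 2.19, 2.83 and 2.33 in LFD and 2.26, 2.31 and 2.56 in HFD. It peaked at ZT12.1, ZT16.9 and ZT8.19 in LFD and ZT10.7, ZT15.8 and ZT6.69 in HFD.

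**Figure D3:**
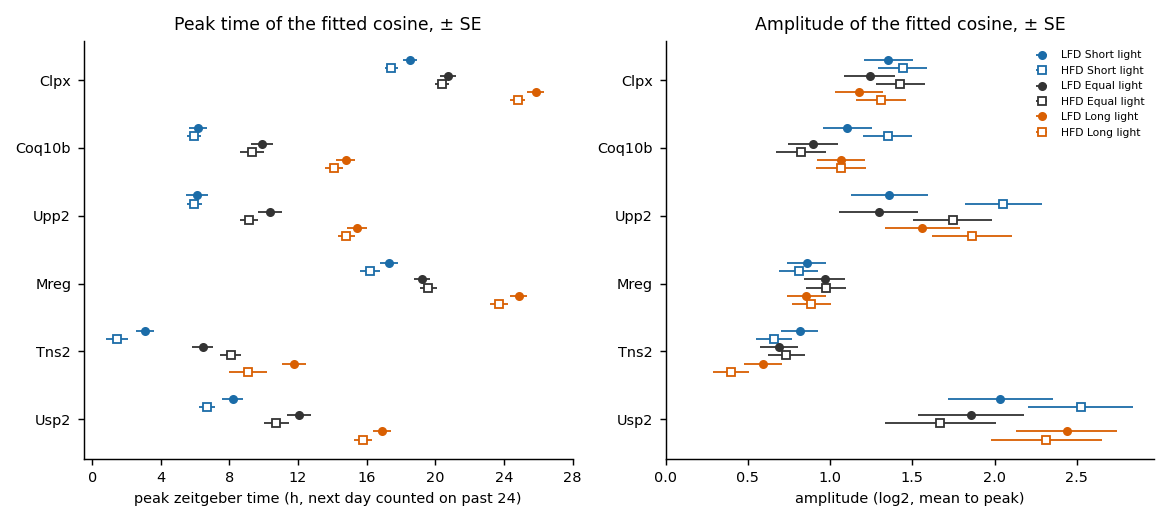
Peak time (left, zeitgeber time in h, times after ZT24 belong to the next cycle) and amplitude (right, log2, mean to peak) of the cosine fitted per arm to each gene, with SE as bars; colours are photoperiods, filled circles LFD and open squares HFD. Short, Equal and Long light follow each other in this order, but the Equal and Long light peaks of Tns2 in HFD lie within their errors, and Clpx and Mreg lie about opposite to Coq10b and Upp2.

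In LFD the fitted peaks of all 6 genes came earliest in Short light, then in Equal light and then in Long light, and in HFD this held for all but Tns2, whose Equal and Long light peaks were not apart (1.01 h, SE 1.26). From Equal to Long light the peak of the members came 4.81 h (Usp2) to 5.62 h (Mreg) later in LFD. In HFD it came 4.13 h (Mreg) to 5.70 h (Upp2) later in the members other than Tns2. From Equal to Short light it moved by -1.96 h (Mreg) to -4.28 h (Upp2) in LFD and by -2.96 h (Clpx) to -6.64 h (Tns2) in HFD. From Short to Long light the difference was 7.33 h (Clpx) to 9.34 h (Upp2) in LFD and 7.35 h (Clpx) to 9.10 h (Usp2) in HFD. The median over the 19 clock and clock output genes was 8.24 h in LFD and 8.19 h in HFD, inside the members' range. ZT is counted from an event that may itself move with the light schedule, so these differences are on the labelled scale.

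By the 36 group means the members fell into opposed phases, and these correlations describe groups that share libraries, with no test. Clpx and Mreg had an r of 0.937, Coq10b and Upp2 0.950, Upp2 and Usp2 0.914, and Clpx and Coq10b -0.944. Tns2 was opposed to Mreg (-0.815) and Clpx (-0.689) and went only loosely with Coq10b (0.538), Upp2 (0.508) and Usp2 (0.239). Among 11321 other genes with a mean of at least 1 log2 CPM, the closest to Clpx were Selenoi (0.979), which makes a membrane phospholipid, Elovl3 (0.969), a fatty acid elongase, and Dtx4 (0.969). The genes most opposed to it were Ciart (-0.951), a clock repressor, and Coq10b itself. Ciart was also the closest to Coq10b (0.965) and to Upp2 (0.969), followed for Coq10b by Upp2 and Ppat (0.939), an enzyme of purine synthesis, and for Upp2 by the PAR bZIP factor Tef (0.965) and Per3 (0.954). Most opposed were Mad2l2 (-0.969) and Asap2 (-0.955) to Coq10b, and Grk5 (-0.951) and Rnf144a (-0.945) to Upp2.

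Mreg lay closest to Pitx3 (0.970), Nfil3 (0.964), the repressor at D-boxes, and Pxmp4 (0.961), a peroxisomal membrane protein, and was most opposed to Azin1 (-0.954) and Narf (-0.950). Tns2 lay closest to Arsa (0.953), a lysosomal sulfatase, Tbc1d10a (0.941) and Rcl1 (0.938), and was most opposed to Desi2 (-0.946) and the clock repressor Cry1 (-0.930). Usp2 lay closest to the cell cycle kinase Wee1 (0.965), Nampt (0.958), the rate-limiting enzyme of NAD salvage, and Per1 (0.952), and was most opposed to Mcu (-0.946), the mitochondrial calcium uniporter, and Smagp (-0.945). Each of these r values is over 36 group means on the log2 CPM scale.

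Diet was not used to choose the genes, so the level in HFD against LFD could be tested. Clpx rose in HFD by 0.22 on the log2 scale (SE 0.0864, 1.17-fold, 95% interval 0.05 to 0.39). Its libraries ran from 5.80 through a median of 7.36 to 9.05 log2 CPM in HFD and from 5.59 through 7.48 to 8.74 in LFD, so that the diets overlap almost over their whole range, which holds the daily cycle. The difference compares group means of the same photoperiod and time, each group with equal weight, which is why it can depart from the difference of medians. Limma, fitted to all 14397 genes with Benjamini-Hochberg adjustment, gave an adjusted p of 0.0447 (raw p 0.0110), the only member of 6 called in this comparison. Over all genes 25.5% were called, so 1 of 6 is not above that background. At an unadjusted p under 0.05 the count was 2, Clpx and Mreg. The call is not firm: Clpx kept its direction in all 12 alternative settings, with differences of 0.18 to 0.27, but passed the threshold in 6 of them, with adjusted p from 0.00266 to 0.270. It was lost with limma-voom on recovered reads (adjusted p 0.0501), after quantile normalization (0.0821), without the 17 libraries in which muscle or pancreas markers were high (adjusted p 0.106) and without replicate 1, 2 or 3 of every group (0.270, 0.0800 and 0.171).

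For the other members the diet difference over all times did not pass the test. Mreg differed by 0.13 (SE 0.0635, 95% interval 0.01 to 0.26, adjusted p 0.109), and Coq10b by -0.12 (SE 0.0854, -0.29 to 0.05, adjusted p 0.312). Usp2 differed by -0.14 (SE 0.182, -0.50 to 0.22), Upp2 by -0.07 (SE 0.127, -0.32 to 0.18) and Tns2 by 0.05 (SE 0.0656, -0.08 to 0.18). The sign of Upp2 changed without replicate 1 (0.019) and that of Tns2 without the 9 libraries (-0.013), so no direction is given for either. Usp2 kept its sign in the 12 alternative settings, but its difference ran from -0.21 to -0.024, the latter without the 9 libraries. It passed the threshold in 0 of them. A rise of the size called in Clpx (0.2241) lies inside the interval of Mreg and just above that of Usp2, whose upper limit was 0.2166. A fall of that size lies inside the intervals of Usp2, Upp2 and Coq10b. The interval of Tns2 holds neither. When the 9 libraries were left out, Clpx differed by 0.22 (SE 0.0583, adjusted p 0.00266) and Mreg by 0.14 (SE 0.0483, adjusted p 0.0197), so that 2 of 6 members were called where 28.3% of all genes were. Both are the genes with peaks late in the cycle under Equal light. Leaving these libraries out narrows the members' spread by construction, so nothing is read from the 2 of 6 against all genes. Mreg was also called without replicate 2 (0.20, adjusted p 0.0442) and not without replicate 3 (0.07, adjusted p 0.581).

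Within a photoperiod, limma called 0 of 6 members with all libraries, where the share of all genes called was 6.85% for Equal, 4.86% for Long and 6.88% for Short light. At an unadjusted p under 0.05 the counts of members were 0, 0 and 2, and limma-voom on recovered reads called 0 in each. The 2 in Short light were Clpx (0.34, SE 0.148, adjusted p 0.151) and Coq10b (-0.31, SE 0.146, adjusted p 0.187). With the 9 libraries left out, both Short light differences were smaller. Limma then gave 0.18 (SE 0.0998, raw p 0.082) for Clpx and -0.18 (SE 0.0939, raw p 0.0553) for Coq10b. Without the 9 libraries Clpx in Equal light was higher in HFD by 0.45 (adjusted p 0.00251) and Mreg by 0.29 (adjusted p 0.0187), where 8.91% of all genes were called. The members' spread is narrowed by construction there too, so nothing is read from these calls against that share. With all libraries the same differences of Clpx and Mreg in Equal light were 0.27 (SE 0.151) and 0.14 (SE 0.111). A test of whether the diet difference itself changed with photoperiod called 0 of 6 members and 0.00% of all genes, with 0 members at an unadjusted p under 0.05 and 0 by limma-voom.

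At single times, over the 3 photoperiods, 0 of 6 members were called at any ZT, where 0.472% of all genes were called at ZT0, 2.36% at ZT4, 0.181% at ZT8, 0.00695% at ZT12, 2.50% at ZT16 and 0.597% at ZT20. Limma-voom called 0 members at each ZT, and at an unadjusted p under 0.05 there were 2 at ZT16 and 0 at the others. The 2 were Clpx and Mreg. At ZT16 Clpx read 8.19, 7.30 and 8.35 log2 CPM in HFD Equal light and 7.47, 7.54, 7.08 and 7.46 in LFD Equal light. In Long light it read 6.42, 6.42 and 6.86 in HFD and 5.70, 7.37, 5.66 and 6.73 in LFD. In Short light the HFD libraries read 8.75, 8.50 and 8.72 and the LFD libraries 8.32, 8.30, 8.24 and 6.68. The diets overlapped in Equal and Long light and not in Short light. Of these libraries, the lowest of HFD Equal light (7.30), the highest of LFD Long light (7.37) and the lowest of LFD Short light (6.68) went against their label. The difference over the 9 HFD and 12 LFD libraries was 0.51 (SE 0.209, adjusted p 0.196) for Clpx and 0.35 (SE 0.154, adjusted p 0.238) for Mreg.

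With those 9 libraries left out, 3 members were called at ZT16, where 1.73% of all genes were called, and 1 at ZT8, where 0.590% were. At ZT16 Clpx rose by 0.60 (adjusted p 0.0180) and Mreg by 0.48 (adjusted p 0.0197) in HFD, and Upp2 fell by 0.78 on the log2 scale (adjusted p 0.0429). At ZT8 Usp2 rose by 0.98 (adjusted p 0.0364). With all libraries the ZT8 difference of Usp2 was 0.62 (SE 0.441, adjusted p 0.677) and the ZT16 difference of Upp2 was -0.44 (SE 0.308, adjusted p 0.530). The Usp2 values behind ZT8 lie mainly in Long light, where HFD read 3.61, 1.83, 4.66 and 3.07 log2 CPM and LFD, without its library against the label, 0.564, 0.710 and 0.692. In Equal and Short light at ZT8 the Usp2 libraries of both diets overlapped. Which libraries are left out decides these calls. The SD of the members' libraries around their group means was 0.355 (Mreg) to 1.02 (Usp2) with all libraries. Without the 9 it was 0.257 (Mreg) to 0.563 (Usp2), while that of the median gene went from 0.253 to 0.243. The members' narrower spread follows from how the 9 were named, so nothing is read from these counts against all genes.

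**Figure D4:**
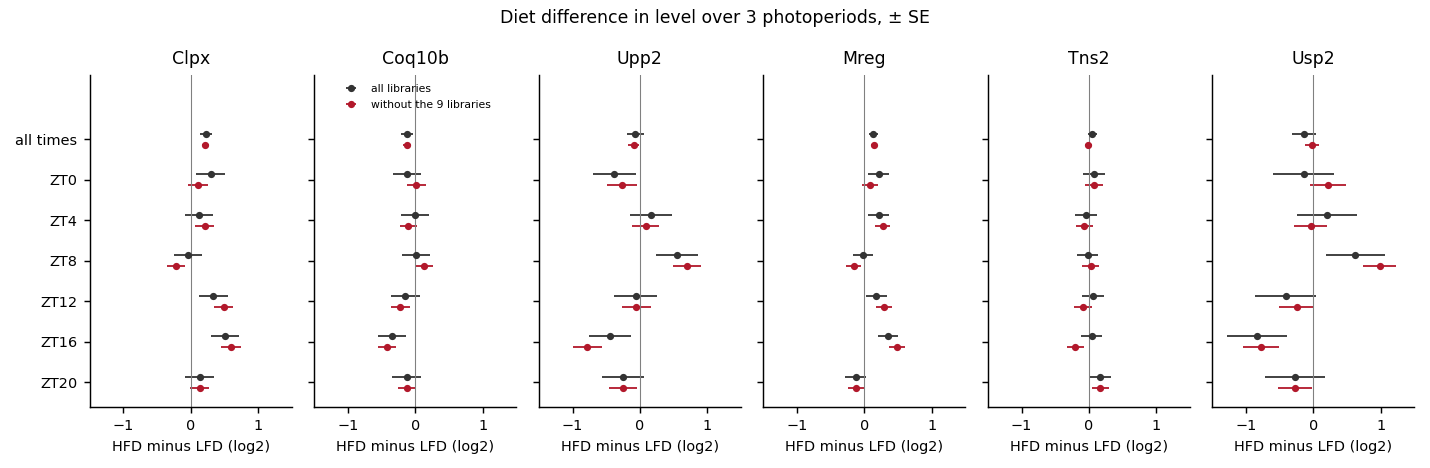
HFD minus LFD difference (log2, horizontal axis) with SE as bars for each gene, over all times and at each zeitgeber time, averaged over photoperiods with equal weight, with all libraries (black) and without the 9 libraries whose clock genes went against their label (red). Clpx and Mreg lie right of 0 over all times, at 0.22 and 0.13, and Usp2 lies right of 0 at ZT8 and left at ZT16.

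The daily curves were then compared between diets, as the difference of both cosine coefficients averaged over photoperiods. Peaks differ by hours between photoperiods, so coefficients partly cancel in this average. For Usp2 in LFD the averaged cosine had an amplitude of 1.24, where the arms had 1.86, 2.44 and 2.03. A diet change shared by the photoperiods is blunted in the same way, so a lack of calls does not show equal rhythms. Limma called 0 of 6 members and 0.00695% of all genes, with 0 members at an unadjusted p under 0.05 and 0 by limma-voom. All 6 members had an adjusted p of 1, and the lowest raw p was 0.0566, in Upp2. Leaving out the 9 libraries, the raw p of Upp2 was 0.00378 and that of Usp2 0.0162, both with an adjusted p of 1. As a description, the fitted peak was earlier in HFD in 16 of 18 pairs of member and photoperiod, with a median of -1.06 h and a range of -2.66 h to 1.63 h. The exceptions were Mreg and Tns2 in Equal light, later in HFD by 0.36 h (SE 0.674) and 1.63 h (SE 0.862). Without the 9 libraries the peak was earlier in HFD in 17 of 18 pairs, with a median of -1.14 h and a range of -3.47 h to 0.313 h. Tns2 in Equal light was then the exception, at ZT7.025 in LFD and ZT7.338 in HFD. Among the 19 clock and clock output genes, with all libraries, the peak was earlier in HFD in 47 of 57 such pairs, with a median of -0.88 h. The members share libraries with each other and with the clock genes, so these pairs are not independent.

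Whether the diet difference in rhythm changed with photoperiod was tested too, and limma called 0 of 6 members and 0.00% of all genes, with 1 member at an unadjusted p under 0.05 and 0 by limma-voom. That member was Tns2 (raw p 0.0101, adjusted p 0.803), whose peak in HFD came 1.63 h later in Equal light and -2.66 h (SE 1.31) and -1.66 h (SE 0.826) from LFD in Long and Short light. Leaving out the 9 libraries, its raw p was 0.000235 and its adjusted p 0.120, with 0 of 6 members and 0.0208% of all genes called. The raw p was then under 0.05 in Clpx (0.00467, adjusted p 0.299), Mreg (0.0173, adjusted p 0.417) and Usp2 (0.0349, adjusted p 0.517) too. The members' spread is narrowed by construction in that setting. Tns2 then peaked at ZT7.025 (LFD) and ZT7.338 (HFD) in Equal light. In Long light these peaks were ZT12.6 and ZT9.09, and in Short light ZT2.84 and ZT1.15.

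The level averaged over the day was also compared between photoperiods. Limma called 0 of 6 members and 0.0278% of all genes, with 0 members at an unadjusted p under 0.05 and 0 by limma-voom. The largest difference of a member from Equal light was that of Usp2 in Short light, 0.30 (SE 0.223), and the lowest adjusted p was 0.458, in Mreg, which differed by 0.16 (SE 0.0783) in Long and 0.12 (SE 0.0778) in Short light. Without the 9 libraries, which narrows the members' spread by construction, limma again called 0 of 6 members, and 0.0347% of all genes. The lowest raw p was then 0.0023, in Tns2 (adjusted p 0.202), followed by 0.00509 in Coq10b (adjusted p 0.247). That of Usp2 was 0.87. The genes were chosen in part for how their rhythms differed between photoperiods, so nothing is read from the contrast between their peak times and their mean levels.

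A cosine of 24 h is symmetric, and a harmonic of 12 h measures how far a curve departs from that shape. The genes were chosen by these same daily curves, and they follow the clock genes by which the 9 libraries were named, so the counts below are a description and nothing is read from them against all genes. With all libraries limma called 0 of 6 members for the 12 h harmonic and 0.229% of all genes, with 1 member, Mreg, at an unadjusted p under 0.05 and 0 by limma-voom. When the 9 libraries were left out, 4 of 6 members (Mreg, Coq10b, Usp2 and Clpx) and 1.94% of all genes were called, and without libraries 49 to 64 the count was 1. The 12 h amplitude fitted with all libraries was 0.19 to 0.39 log2 units in Mreg, up to 0.45 of its 24 h amplitude, in LFD Short light. Its curve there ran from 3.65, 3.91 and 3.58 log2 CPM at ZT4 through 4.29, 4.53 and 4.20 at ZT8 to 5.24, 5.51, 5.10 and 5.29 at ZT12, then stayed near that level to ZT16.

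The other genes of each member's pathway were read from lists, tested for a 24 h rhythm with all 14397 genes in the fit, where 52.7% of all genes were called. In the mitochondrial protease and chaperone list 11 of 22 tested genes were called rhythmic, but the largest mean amplitude was 0.233, in Grpel2, a gene named here after its value was seen, against 1.32 for Clpx. The 4 with the smallest p were the chaperonin Hspd1 (amplitude 0.188, adjusted p 3.22e-11), the membrane protease Afg3l2 (0.140), the co-chaperone Grpel1 (0.143) and Dnaja3 (0.128). In the coenzyme Q synthesis list 11 of 12 were called. Coq8a, an atypical kinase that coenzyme Q synthesis needs, had an amplitude of 0.770 (adjusted p 5.18e-18) and a peak at ZT21.3 in LFD Equal light, near the time when Coq10b was lowest. The next by p, Pdss2, Coq7 and Coq5, had amplitudes of 0.179, 0.215 and 0.106, against 1.05 for Coq10b.

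In the pyrimidine list 18 of 23 were called rhythmic. Tymp, thymidine phosphorylase, had an amplitude of 0.684 with a peak at ZT22.1 in LFD Equal light, and thymidine kinase Tk1 one of 0.629 with a peak at ZT15.3 (adjusted p 8.36e-18 for each). Uck2, a uridine kinase that works on the substrate of UPP2 in the salvage direction, had 0.277 with a peak at ZT13.4, and cytidine deaminase Cda 0.507, against 1.65 for Upp2. In the melanosome and lysosome transport list 10 of 22 were called, led by Rab32 (0.287, adjusted p 5.38e-13) and Hps1 (0.347), against 0.892 for Mreg. In the tensin and focal adhesion list 12 of 23 were called, led by Itga5, an integrin subunit that binds fibronectin (0.574, adjusted p 6.77e-15), Fermt2 (0.367) and Dlc1 (0.313), against 0.647 for Tns2. Among the ubiquitin-specific proteases other than Usp2, 25 of 43 were called, and Usp7, Usp22, Usp15 and Usp18 had amplitudes of 0.135, 0.180, 0.122 and 0.368, against 2.14 for Usp2. The shares of rhythmic genes stand beside the 52.7% of all genes. The members were chosen for large rhythms in these libraries and their lists were not, so that their larger amplitudes follow from the choice and are no result.

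**Figure D5:**
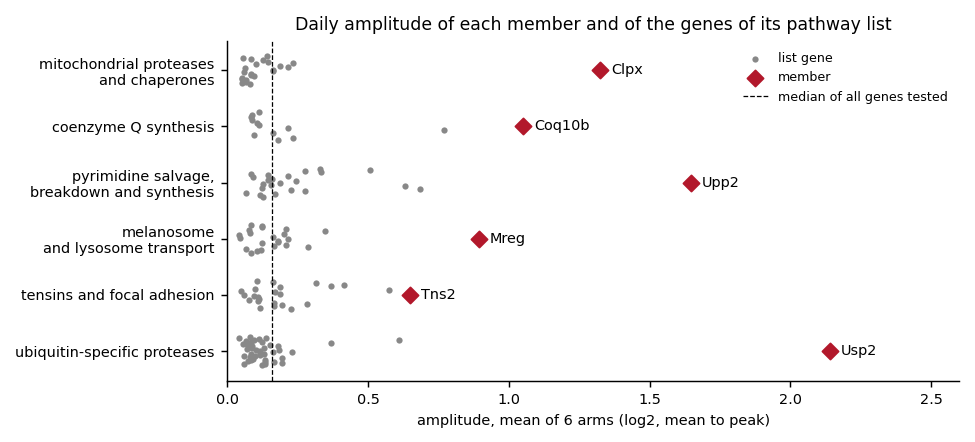
Mean amplitude over the 6 arms (log2, mean to peak, horizontal axis) of each member (red diamonds) and of the tested genes of its pathway list (grey dots), with the median of all genes tested (dashed line, 0.159). The members lie to the right because they were chosen for large rhythms. Among the list genes Coq8a (0.770), Tymp (0.684), Tk1 (0.629), Usp13 (0.608) and Itga5 (0.574) lie far from the dashed line. Usp13 had a mean level of -1.9 log2 CPM and was not called rhythmic.

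The same lists were read for diet. Among the mitochondrial proteases and chaperones, 8 of 22 rose in HFD and 0 fell, where 12.9% of all genes rose and 12.6% fell, and the median difference of the list was 0.03 against -0.004 for all genes. The 8 include Pmpcb, a subunit of the peptidase that trims imported proteins (0.16, SE 0.020, adjusted p 4.87e-10), Clpb (0.19, SE 0.033), Pitrm1 (0.15, SE 0.029) and Dnaja3 (0.10, SE 0.021). In the coenzyme Q list 5 of 12 rose and 0 fell, with Pdss2 (0.14), Coq10a (0.13), Coq3 (0.10) and Coq4 (0.10) first by p and a list median of 0.05. In the pyrimidine list 5 rose and 4 fell: Uck1 rose by 0.36 (adjusted p 8.38e-07), Dpys by 0.30 and Upp1, the relative of Upp2, by 0.22 (SE 0.061, adjusted p 0.00508), and Uck2 fell by 0.18 on the log2 scale. The melanosome list had 3 rises (Lamp1, Hps5 and Bloc1s1) and 0 falls among 22, and the tensin list 3 rises (Tln2, Axl and Fermt2) and 0 falls among 23. Among the ubiquitin-specific proteases 2 rose (Usp4 and Usp8) and 7 fell, of 43, with Usp28 (-0.15) and Usp34 (-0.14) first by p. Among the 19 clock genes 0 rose and 1, Rora, fell (by 0.18 on the log2 scale, SE 0.053).

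Markers of other cells moved with diet as well. Of 13 tested pancreas acinar markers 11 fell in HFD, and their summed level ran from 17.7 to 606 CPM in HFD and from 12.3 to 4110 CPM in LFD. Of 10 Kupffer cell and macrophage markers 6 rose, with sums of 308 to 835 CPM in HFD and 267 to 787 CPM in LFD. Stellate and endothelial cell markers had 3 and 2 rises of 10 each with 0 falls, and skeletal muscle, cholangiocyte and adipocyte markers had 0 of 15, 0 of 5 and 0 of 2 called by limma. Of the 8 hepatocyte markers 1 rose and 2 fell. Their part in the diet difference of Clpx was not tested, beyond the value without the 17 libraries given above.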

How the data were processed

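Liver RNA was extracted with Trizol and RNeasy, made into stranded poly-A libraries and sequenced in pairs, per the labels' protocols. STAR, featureCounts and Subread 1.6.2 with build mm10 are named in the submitters' processing notes. The authors deposited 1 table of log2 CPM values for 15398 genes, 1 column per library, and every column matched 1 sample. The lowest value, -3.6124 log2 (0.08176 CPM), is that of 0 reads with a prior of 2.0 reads, and from it whole reads were recovered for 99.43% to 99.73% of values, within 0.05 reads, which gave the depth of each library.

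Because the deposited values are log2 CPM and no counts, they were analysed in limma 3.58.1 (R 4.3.3) with an intensity trend. A gene entered the fit if 3 or more libraries had 1 CPM or more, which left 14397 genes. Levels were compared over 36 group means with equal weight. Rhythms were fitted as a 24 h cosine per arm, with a 12 h harmonic added for shape. The Benjamini-Hochberg adjustment of p-values covered every gene fitted, with a threshold of 0.05. The fits were tested on simulated data. Replicates were numbered in accession order within a group.

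The members and the gene lists were chosen with earlier results of these data known. Named list genes are the 4 with the smallest p or fewer, with others where a sentence says why, and the most similar genes are the 3 highest and 2 lowest r over 36 group means. The time of each library was matched by 19 clock genes in steps of 0.25 h to its own arm, leaving the library out. Alternatives were limma-voom on recovered reads, quantile normalization, no filter, log2(CPM + 1), a cosine on CPM, library number as covariate, and leaving out each replicate or the 17 libraries high in muscle or pancreas markers. Leaving out the 9 libraries against their labelled time, or libraries 49 to 64, was added after seeing the data. Symbols were missing for 1409 genes, of which 1395 were filled from the reference annotation.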

Additional observations from a re-analysis of the deposited data

Results flagged for a closer look

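In groups of 4 libraries, a library was marked where its gap to the nearest of the others divided by the range of its group exceeded Dixon's critical value for 4 libraries. Among 90 member and group values 11 were marked, and 8 of these lie in libraries whose clock genes went against their labelled time. Chance marks about 1 in 20 such values.

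LFD Equal light ZT12 replicate 4 stood apart for 4 members. Its level was 8.204 log2 CPM for Clpx, where the median of the others was 6.003, and 3.594 for Coq10b, against 5.851. It was 5.921 for Upp2, against 9.211, and 5.167 for Mreg, against 4.476. LFD Long light ZT8 replicate 1 read 3.802 for Mreg, against 5.443, and 5.022 for Usp2, against 0.692. LFD Short light ZT16 replicate 4 read 6.676 for Clpx, against 8.298. LFD Long light ZT16 replicate 2 read 3.971 for Coq10b, against 5.872.

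The other 3 lie in libraries that matched their labelled time. Coq10b read 3.193 in LFD Long light ZT4 replicate 1, against 3.689 in the median of the others. Tns2 read 4.091 in HFD Equal light ZT20 replicate 1, against 5.491. Usp2 read 5.469 in LFD Short light ZT12 replicate 4, against 4.348.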

How the results depend on the processing

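The diet differences of members that passed the threshold kept their direction under every alternative run. Among 666 alternative values of the members' diet differences, 66 changed sign, each of a difference that passed the threshold in neither fit. In the diet comparison over all photoperiods, 1 member was called, and 0 with limma-voom, quantile normalization or without the 17 libraries high in muscle or pancreas markers, 0 to 1 without a replicate, and 2 without the 9 libraries against their labelled time or without libraries 49 to 64. Shares below are percentages of all genes called. That comparison called 25.5%, and 15.9% to 22.7% without a replicate. Limma-voom called 0.00% in place of 0.00695% at ZT12 and 0.271% in place of 0.597% at ZT20. Quantile normalization called 0.820% in place of 0.472% at ZT0. Library number as covariate called 0.313% at ZT0 and, for the 12 h harmonic, 0.375% in place of 0.229%.

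With the 17 libraries left out, the genes called were 0.771% in place of 4.86% in Long light, 3.42% in place of 6.88% in Short light, 0.0278% at ZT0, 0.542% in place of 2.36% at ZT4, 1.53% in place of 2.50% at ZT16, 0.0278% at ZT20, 0.00% in place of 0.0278% between photoperiods, 0.00% in place of 0.00695% for the diet rhythm and 0.0556% for the 12 h harmonic. The smallest group then held 1 library, which is assumed to vary like the others.

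With the 9 libraries left out, members called were 2 in Equal light, 1 at ZT8, 3 at ZT16 and 4 for the 12 h harmonic, each in place of 0. Genes called were 1.81% at ZT0, 4.53% at ZT4, 0.590% in place of 0.181% at ZT8, 0.0556% at ZT12, 1.17% at ZT20, 0.0208% in place of 0.00% for the diet by photoperiod rhythm and 1.94% for the 12 h harmonic. With libraries 49 to 64 left out, members called were 1 in Equal light and 1 for the 12 h harmonic, and genes called were 1.72% at ZT0, 4.29% at ZT4, 1.13% at ZT8, 0.0764% at ZT12, 1.04% at ZT16, 1.33% at ZT20, 0.00% between photoperiods and 1.57% for the 12 h harmonic.

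Leaving out 1 replicate of each group called 1.35% to 5.30% in Equal light (6.85% with all), 1.19% to 4.21% in Long light, 0.834% to 4.35% in Short light, 0.00695% to 0.396% at ZT0, 0.250% to 1.28% at ZT4, 0.00% to 0.882% at ZT8, 0.00% to 0.0139% at ZT12, 0.0417% to 2.10% at ZT16, 0.00% to 0.771% at ZT20, 0.00% to 0.0972% between photoperiods, 0.00% to 0.00695% for the diet rhythm and 0.00% to 0.0486% for the 12 h harmonic. Fewer libraries enter these fits, and beyond that the cause was not tested. No paired analysis was possible because the labels give no replicate numbers shared between groups. A cosine through 6 times resolves no sharper shape.

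The sign changes of the diet difference (HFD minus LFD, log2) were these. With limma-voom it became -0.012 for Usp2 in Long light. With quantile normalization it became 0.010 for Tns2 in Short light, 0.017 for Coq10b at ZT4. Leaving out the 17 libraries, it became -0.031 for Coq10b in Equal light, -0.014 for Clpx and 0.0016 for Coq10b in Long light, 0.11 for Clpx, -0.090 for Coq10b and 0.041 for Mreg at ZT8. Leaving out the 9, it became -0.013 for Tns2 over all photoperiods, -0.084 for Coq10b and -0.030 for Tns2 in Equal light, -0.0077 for Tns2 in Long light, 0.016 for Coq10b and 0.21 for Usp2 at ZT0, -0.041 for Usp2 at ZT4, 0.028 for Tns2 at ZT8, -0.086 for Tns2 at ZT12, -0.20 for Tns2 at ZT16. Leaving out libraries 49 to 64, it became -0.011 for Tns2 over all photoperiods, -0.10 for Coq10b and -0.077 for Tns2 in Equal light, -0.12 for Usp2 in Long light, 0.0030 for Tns2 in Short light, 0.023 for Coq10b and 0.16 for Usp2 at ZT0, -0.041 for Usp2 at ZT4, 0.011 for Clpx, -0.034 for Coq10b and 0.0052 for Mreg at ZT8, -0.092 for Tns2 at ZT12, -0.11 for Tns2 at ZT16. Without a replicate, the range was -0.15 to 0.019 for Upp2 over all photoperiods, -0.037 to 0.075 for Coq10b, -0.11 to 0.15 for Upp2 and -0.24 to 0.23 for Usp2 in Equal light, -0.091 to 0.13 for Clpx, -0.15 to 0.0089 for Coq10b, -0.0042 to 0.14 for Mreg and -0.23 to 0.19 for Usp2 in Long light, -0.11 to 0.053 for Tns2 in Short light. At single times it was -0.34 to 0.12 for Coq10b, -0.16 to 0.24 for Tns2 and -0.59 to 0.43 for Usp2 at ZT0, -0.099 to 0.075 for Coq10b, -0.16 to 0.079 for Tns2 and -0.0080 to 0.35 for Usp2 at ZT4, -0.22 to 0.16 for Clpx, -0.099 to 0.11 for Coq10b, -0.18 to 0.12 for Mreg and -0.075 to 0.0081 for Tns2 at ZT8, -0.30 to 0.012 for Coq10b, -0.34 to 0.48 for Upp2, -0.012 to 0.29 for Mreg and -0.67 to 0.22 for Usp2 at ZT12, -0.14 to 0.14 for Tns2 at ZT16, -0.089 to 0.26 for Clpx at ZT20.

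Of 36 amplitudes and 36 peak times, the number that moved by their SE or more was 8 and 6 without the 9 libraries, 6 and 4 without libraries 49 to 64, 1 to 4 and 0 to 4 without a replicate, and 0 and 0 under limma-voom, quantile normalization, no filter, log2(CPM + 1), library number as covariate and without the 17 libraries. The cosine on CPM moved 2 peak times, of Usp2 in LFD Long light (ZT16.2 in place of ZT16.9) and LFD Short light (ZT7.26 in place of ZT8.19).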
